A study of Caenorhabditis elegans with 4 samples.

Results

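The F-box genes described here were the 311 rows of the authors' deposited table whose name is fbxa, fbxb or fbxc followed by a number, out of 18638 features in all. They comprised 170 fbxa, 97 fbxb and 44 fbxc genes, and RefSeq annotated 49 of the 311 as pseudogenes. Membership rests on the name alone and on no measured value. The samples were 4 poly(A) RNA libraries from whole gravid adult Caenorhabditis elegans, 2 from N2 (wild type) and 2 from YY1449 (rde-3 mutant). RDE-3, whose gene is also called mut-2, is a nucleotidyltransferase that puts poly(UG) tails on RNAs targeted by RNA interference. Each genotype was 1 strain, and the allele carried by the mutant is not given in the sources used here. What was asked is which transcripts differed in level between mutant and wild-type adults. In bulk RNA from whole animals, fewer cells of a type and less RNA per cell cannot be told apart.

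F-box proteins are the substrate-binding subunits of SCF ubiquitin ligases. The F-box motif binds an SKP1-type adaptor, which holds the protein on a cullin scaffold, while the rest of the protein selects the substrate to be ubiquitinated. The family is much larger in nematodes than in mammals. fbxa proteins carry, besides the F-box, the FTH domain named after FOG-2, an F-box protein needed for sperm formation in hermaphrodites, whereas fbxb and fbxc proteins carry other substrate-side domains. Most members have no described function, and those with one are named with it below.

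The authors' deposited table gives for each gene the normalized count averaged over the 4 libraries, the log2 fold change of mutant over wild type, its standard error and an adjusted p, which was used at 0.05. Because the mean is a sum of whole reads divided by 4 size factors, the reads of each library could be recovered from it. At means of 100 or more the deposited log2 was also used to choose the solution. All 311 members had exactly 1 solution. The size factors were 1.42 and 0.963 on the wild-type side and 1.06 and 0.707 on the mutant side. The libraries are called the deeper and the shallower one of each genotype, since which labelled replicate each of them is cannot be told. Values per library below are normalized reads, that is reads divided by the size factor, with the deeper library of each genotype first. The normalized value of 1 read was 0.705 and 1.04 in the wild-type and 0.947 and 1.41 in the mutant libraries. The members held 15702 and 10993 reads in the wild-type and 11718 and 8526 reads in the mutant libraries. The direction was read from the order of names in the comparison, and mut-2 itself, at log2 0.06 ± 0.16 (SE) in the authors' deposited table (adjusted p 0.905), does not check it. Errors of log2 values are the standard errors as deposited, which come from 2 libraries a group. With 2 against 2 libraries an exact permutation test of a single gene cannot go below a two-sided p of 0.333, so none was used.

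The 3 subfamilies differed first in how much RNA they had. A mean of at least 10 normalized reads was reached by 95 of 170 fbxa genes (55.9%), by 17 of 44 fbxc genes (38.6%) and by 5 of 97 fbxb genes (5.15%), 117 in all. The median number of reads summed over the 4 libraries was 57.5 for an fbxa gene, 18.5 for an fbxc gene and 11 for an fbxb gene. Per kilobase of annotated exons the median level in wild type was 11.1 normalized reads for fbxa, 3.3 for fbxc and 2.21 for fbxb. The levels were concentrated in few genes. The 10 members with the highest level per kilobase held 50.1% of the summed level of all 311 in wild type and 47.2% in the mutant.

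The 2 most abundant members did not pass the test. fbxa-215 on chromosome IV (13665364 to 13666909) had the highest level per kilobase, 1235 normalized reads in wild type and 1261 in the mutant, or 13.3% and 13.2% of the summed level of the family. Its libraries held 1506 and 1816 normalized reads in wild type and 1818 and 1573 in the mutant, so the groups overlapped. In the authors' deposited table its log2 change was 0.03 ± 0.15 (adjusted p 0.942). The next was fbxa-210 on chromosome V, at 976 and 1072 normalized reads in wild type against 892 and 752 in the mutant. Both of its mutant libraries were below both wild-type libraries, but the deposited change of -0.31 ± 0.16 did not pass (adjusted p 0.186). Neither of the 2 fbxc genes of highest mean passed. fbxc-44 had 405 and 455 normalized reads in wild type and 514 and 579.8 in the mutant (log2 0.35 ± 0.18 in the authors' deposited table, adjusted p 0.216). fbxc-50 had 362 and 404 against 414 and 382 (log2 0.06 ± 0.19, adjusted p 0.92).

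In the order of level per kilobase, fbxa-215 stood above fbxa-210 in every library. From fbxa-210 on, through fbxc-44, fbxa-101, fbxa-60 and fbxc-50, the ranges of neighbouring ranks over the 4 libraries overlapped, with means of 696 down to 352 normalized reads per kilobase. That order differed by genotype. fbxa-60 had 176 normalized reads per kilobase in wild type and 539 in the mutant. fbxc-32 went the other way, with 396 per kilobase in wild type and 177 in the mutant.

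Summed over each subfamily, the RNA of fbxa and fbxc genes was at nearly the same level in both genotypes and that of fbxb genes was not. The fbxa genes together had 8501 and 8823 normalized reads in wild type and 8368 and 8980 in the mutant, a ratio of 1.00 of mutant over wild type. The fbxc genes had 2161 and 2266 against 2079 and 2243, a ratio of 0.976. For both subfamilies the mutant and wild-type libraries overlapped. The fbxb genes had 410 and 324 normalized reads in wild type and 651 and 834 in the mutant, a ratio of 2.02 with no overlap. A single gene, fbxb-97, held most of that difference, and without it the fbxb sums were 400 and 309 in wild type and 384 and 615 in the mutant. Those overlapped, with a ratio of 1.41. Where a sum is mostly reads of 1 gene it describes that gene and not the subfamily.

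**Figure D1:**
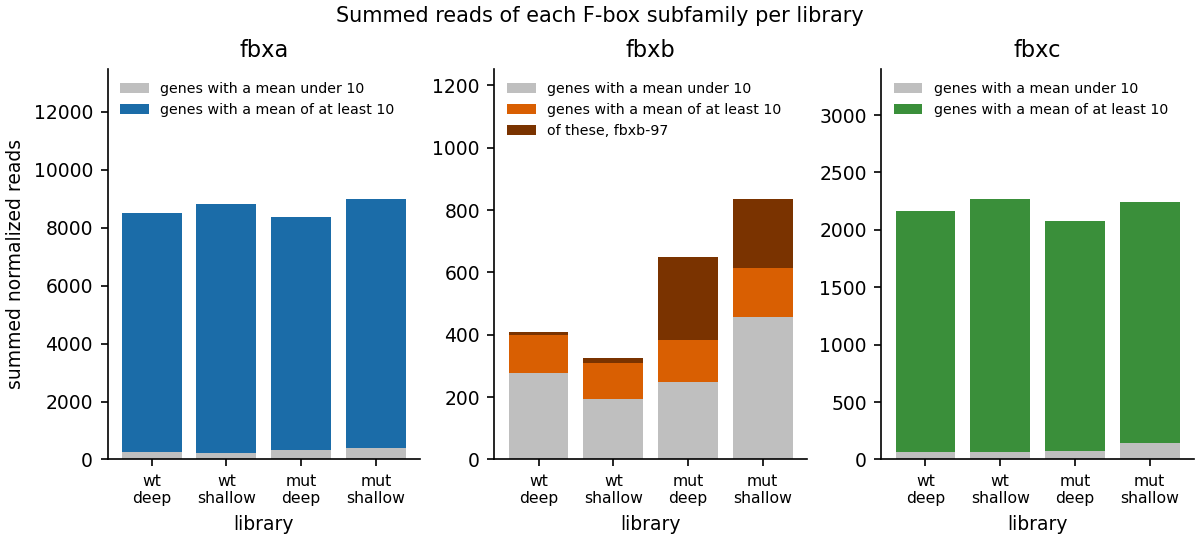
Summed normalized reads of the fbxa, fbxb and fbxc genes in each of the 4 libraries (wt, wild type; mut, rde-3 mutant; deeper and shallower library), as stacked bars that start at 0, each panel with its own scale. Grey marks genes with a mean under 10, colour genes with a mean of at least 10, and the darkest part of the fbxb bars is fbxb-97, which went from 9.87 and 14.5 normalized reads in wild type to 266 and 219 in the mutant.

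By the authors' deposited adjusted p, 24 of the 311 members differed between the genotypes, 14 higher and 10 lower in the mutant. That is 7.72% of the members, against 17.5% of all features called in either direction, 9.42% higher and 8.04% lower. Because most members had few reads, the shares are also given by level. Among the 117 members with a mean of at least 10, 11 were higher and 10 lower, 17.9% in all, against 25.9% of all features of that level, 14.0% higher and 11.9% lower. Among the 44 members with a mean of at least 50, 9 were higher and 8 lower, 38.6% in all, against 31.7% of features of that level, 17.5% higher and 14.2% lower. The shares of members called thus lay on both sides of the background, according to the level chosen. The median log2 change of the 117 was 0.09 against 0.00 over all features of that level, with a median standard error of 0.535. Called fbxa genes were 11 higher and 9 lower of 170. Called fbxb genes were 2 higher and 0 lower of 97, where 4 were higher and 0 lower at an unadjusted p under 0.05 and limma on the recovered reads called 1 higher and 0 lower of the 5 that it tested. Called fbxc genes were 1 higher and 1 lower of 44.

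The recovered reads gave a second reading of the same 117 genes. Both mutant libraries were above both wild-type libraries for 39 of them (33.3%) and below for 42 (35.9%), against 31.8% and 35.7% of 10860 recovered features with a mean of at least 10. These shares were close to the background. limma on log2(normalized reads + 1) called 20 members higher and 15 lower at an adjusted p of 0.05, against 33.2% of the features it tested, 15.1% higher and 18.1% lower, and all 21 members of this level called in the deposited table were among them. Each limma fit that left out 1 library had 1 library on one side, assumed to vary like the 2 of the other genotype, so these fits describe how the calls move and do not show that a call is stable. In them the members called higher were 9 without the deeper and 8 without the shallower wild-type library, and 32 without the deeper mutant library. Those called lower were 4 without the shallower wild-type library, 21 without the deeper mutant and 20 without the shallower mutant library. The median ratio between the 2 libraries of a genotype was 1.2 in wild type and 1.33 in the mutant for these genes.

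**Figure D2:**
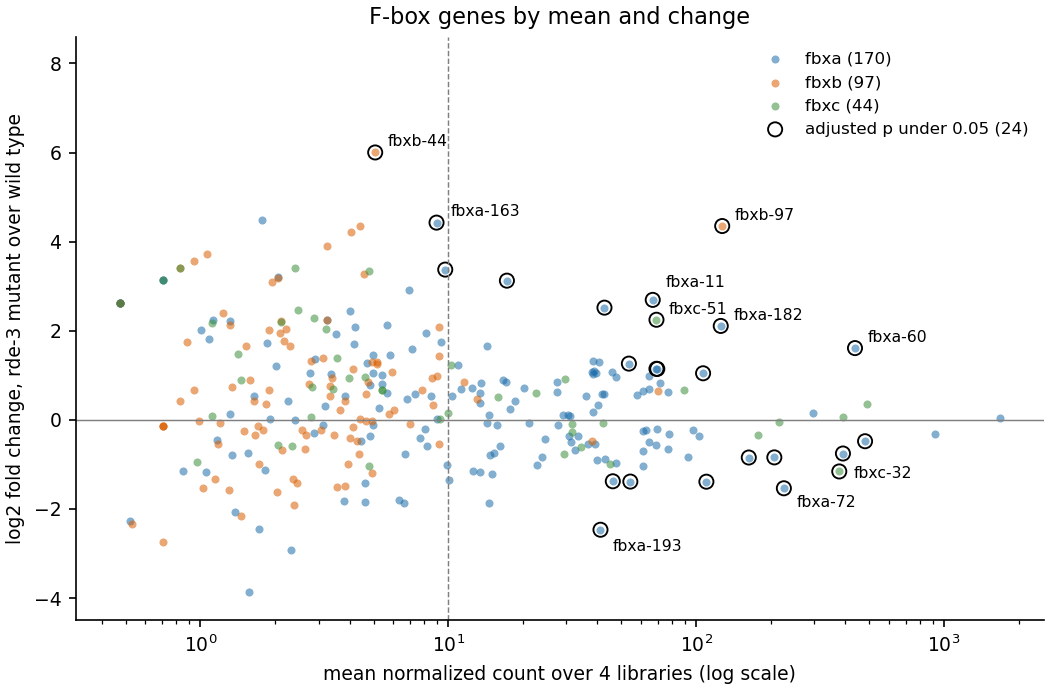
Each point is 1 of the 311 F-box genes, with its mean normalized count over the 4 libraries on a log x axis and its deposited log2 fold change (mutant over wild type) on the y axis; colours mark the subfamilies, rings mark the 24 genes with an adjusted p under 0.05, and the dashed line stands at a mean of 10. To the right of it the called genes lie on both sides of 0, from -2.47 (fbxa-193) to 4.35 (fbxb-97), while the 3 called genes left of the line are all higher in the mutant.

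The largest change with many reads was that of fbxb-97 (C52E2.6, chromosome II, 1846977 to 1848161). It had 9.87 and 14.5 normalized reads in the wild-type and 266 and 219 in the mutant libraries, from 14 and 14 reads against 281 and 155. Both mutant libraries were far above both wild-type libraries. The log2 change in the authors' deposited table was 4.35 ± 0.40 (adjusted p 6.29e-25), and the ratio of the mean normalized reads was 19.9. Per kilobase it went from 10.8 to 214 normalized reads. Its neighbours in the same run of fbxb genes, fbxb-96 and fbxb-95, had 14 and 5 reads in all, 5 and 4 of those of fbxb-96 in wild type against 2 and 3 in the mutant, and were not called (adjusted p 0.945 and 0.876). Small changes of theirs could not be detected at this depth. The other fbxb genes with a mean of at least 10 did not pass. fbxb-7 on chromosome V, the second by mean, had 47.2 and 62.3 normalized reads in wild type and 82.4 and 89.1 in the mutant. Its mutant libraries were both above wild type, but its log2 change of 0.65 ± 0.40 in the authors' deposited table did not pass (adjusted p 0.325).

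Of the fbxc genes, 1 fell and 1 rose, both on the left arm of chromosome II. fbxc-32 (C32B5.10, 946485 to 948191) had 521 and 523 normalized reads in wild type and 236 and 232 in the mutant. The 2 libraries of each genotype were nearly equal, and the deposited log2 change was -1.16 ± 0.20 (adjusted p 1.38e-07). fbxc-51 (Y46B2A.1, 868814 to 871699) had 23.3 and 24.9 normalized reads in wild type and 107 and 122 in the mutant. Its log2 change in the authors' deposited table was 2.25 ± 0.42 (adjusted p 2.33e-06), and again the groups did not overlap. fbxc-32 lies in a run of 20 members between 904425 and 1001451, 18 of them fbxc. Of its 8 members with a mean of at least 10, 6 had negative and 2 positive log2 values, and fbxc-32 was the 1 called. Among its other members with negative values, the largest change was that of fbxc-42, which had 57.1 and 62.3 normalized reads in wild type and 33.1 and 26.9 in the mutant, with a deposited log2 of -0.98 ± 0.49 (adjusted p 0.184). fbxc-42 is named after its values were seen.

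Among the fbxa genes that rose, fbxa-60, fbxa-182, fbxa-11 and fbxa-24 had the smallest adjusted p. fbxa-60 (T12B5.10, chromosome III, 944733 to 946300) had 216 and 214 normalized reads in wild type and 513 and 806 in the mutant, a log2 change of 1.61 ± 0.23 in the authors' deposited table (adjusted p 1.24e-10). fbxa-182 (F42G2.4, chromosome II, 2409633 to 2412749) had 57.1 and 36.3 against 165 and 245, a deposited change of 2.11 ± 0.35 (adjusted p 8.12e-08). In both, the shallower mutant library was the highest of the 4. fbxa-11 (T12B5.4, chromosome III, 950869 to 952264) had 22.6 and 12.5 normalized reads in wild type and 99.4 and 133 in the mutant, a deposited change of 2.69 ± 0.46 (adjusted p 1.94e-07). Its span overlaps the noncoding RNA genes T12B5.16 and T12B5.17, and the library kit keeps no strand, so reads of these cannot be told from its own. fbxa-24 (F54D10.2, chromosome II, 3816526 to 3818238) had 15.5 and 9.34 against 56.8 and 89.1, a deposited change of 2.52 ± 0.56 (adjusted p 1.26e-04). It lies less than 10 kb from skr-15, an SKP1-type adaptor gene that also rose. F54D10.7, which lies between them, did not pass (deposited log2 0.26 ± 0.26, adjusted p 0.675). Nor did fbxa-146, the other member of the run of fbxa-24 (deposited log2 -0.12 ± 0.62, adjusted p 0.949). fbxa-146 is named after its values were seen.

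The other fbxa genes that rose with a mean of at least 10 did so by smaller amounts, apart from the pseudogene fbxa-162. fbxa-150 (chromosome V) had 61.3 and 77.9 normalized reads in wild type and 116 and 171 in the mutant, a deposited log2 of 1.05 ± 0.35 (adjusted p 0.02). fbxa-95 (chromosome V) had 36.7 and 25.955 against 73.9 and 77.8, a deposited log2 of 1.26 ± 0.46 (adjusted p 0.0365). fbxa-67 (chromosome III) had 42.3 and 43.6 against 83.3 and 107, a deposited log2 of 1.15 ± 0.40 (adjusted p 0.03). Its span contains the pseudogene fbxa-23. In all of these the groups did not overlap. fbxa-26 (chromosome III) was the weakest of them, at 45.8 and 40.5 normalized reads in wild type and 71.0 and 122 in the mutant, a deposited log2 of 1.14 ± 0.43 (adjusted p 0.0435). In limma fits without the shallower wild-type library the adjusted p was 0.061 for fbxa-67, 0.1 for fbxa-95 and 0.117 for fbxa-26. Without the deeper wild-type library it was 0.114 for fbxa-150, 0.0715 for fbxa-67 and 0.0762 for fbxa-26, and without the shallower mutant library it was 0.0788 for fbxa-26.

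Of the fbxa genes that fell, fbxa-72 (F31F4.15, chromosome V, 674886 to 676753) had the smallest adjusted p. It had 348 and 323 normalized reads in wild type and 100.4 and 133 in the mutant, a log2 change of -1.54 ± 0.25 in the authors' deposited table (adjusted p 5.70e-08). The pseudogene fbxa-203 (W05F2.5, chromosome I) had 153 and 166 against 67.2 and 53.7, a deposited change of -1.39 ± 0.33 (adjusted p 4.87e-04). The pseudogene fbxa-193 (F59A1.9, chromosome V, 17653482 to 17655281) fell furthest, from 71.9 and 68.5 normalized reads in wild type to 19.9 and 4.24 in the mutant, a deposited change of -2.47 ± 0.62 (adjusted p 8.35e-04). The size of that fall rests on 1 library, which held 3 reads: wild type was 5.82-fold above the mutant over all libraries, 3.53-fold without the shallower and 16.6-fold without the deeper mutant library. fbxa-64 (chromosome V) had 84.6 and 71.6 normalized reads in wild type and 22.7 and 38.2 in the mutant, a deposited log2 of -1.39 ± 0.47 (adjusted p 0.0242). fbxa-83 (chromosome IV) had 71.2 and 62.3 against 28.4 and 22.6, a deposited log2 of -1.38 ± 0.50 (adjusted p 0.0347). Its span holds 8 piRNA loci. In limma fits without the shallower wild-type library the adjusted p was 0.0552 for fbxa-64 and 0.0592 for fbxa-83, and without the deeper one 0.108 and 0.105.

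The remaining 4 fbxa genes that fell were abundant ones with changes of less than 2-fold. fbxa-206 (chromosome V) had 453 and 532 normalized reads in wild type and 317 and 263 in the mutant, a deposited log2 of -0.76 ± 0.20 (adjusted p 0.0026). fbxa-197 (chromosome V) had 192 and 227 against 112 and 122, a deposited log2 of -0.85 ± 0.28 (adjusted p 0.0172). fbxa-101 (chromosome I) had 534 and 586 against 417 and 385, a deposited log2 of -0.48 ± 0.18 (adjusted p 0.0479). Of the 24 called genes, fbxa-101 had the largest adjusted p. The fourth, fbxa-114 (Y113G7B.7, chromosome V, 20201616 to 20202874), had 255 and 276 normalized reads in wild type and 152 and 144 in the mutant, a deposited log2 of -0.84 ± 0.25 (adjusted p 0.00621). In limma without the shallower wild-type library the adjusted p was 0.0772 for fbxa-206, 0.119 for fbxa-197, 0.204 for fbxa-101 and 0.067 for fbxa-114, and without the deeper one it was 0.107 for fbxa-101. On the other side of the threshold, the nearest members were fbxa-108 at a deposited log2 of -1.04 ± 0.43 (adjusted p 0.0811) and fbxa-27 at 1.29 ± 0.54 (adjusted p 0.0845).

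**Figure D3:**
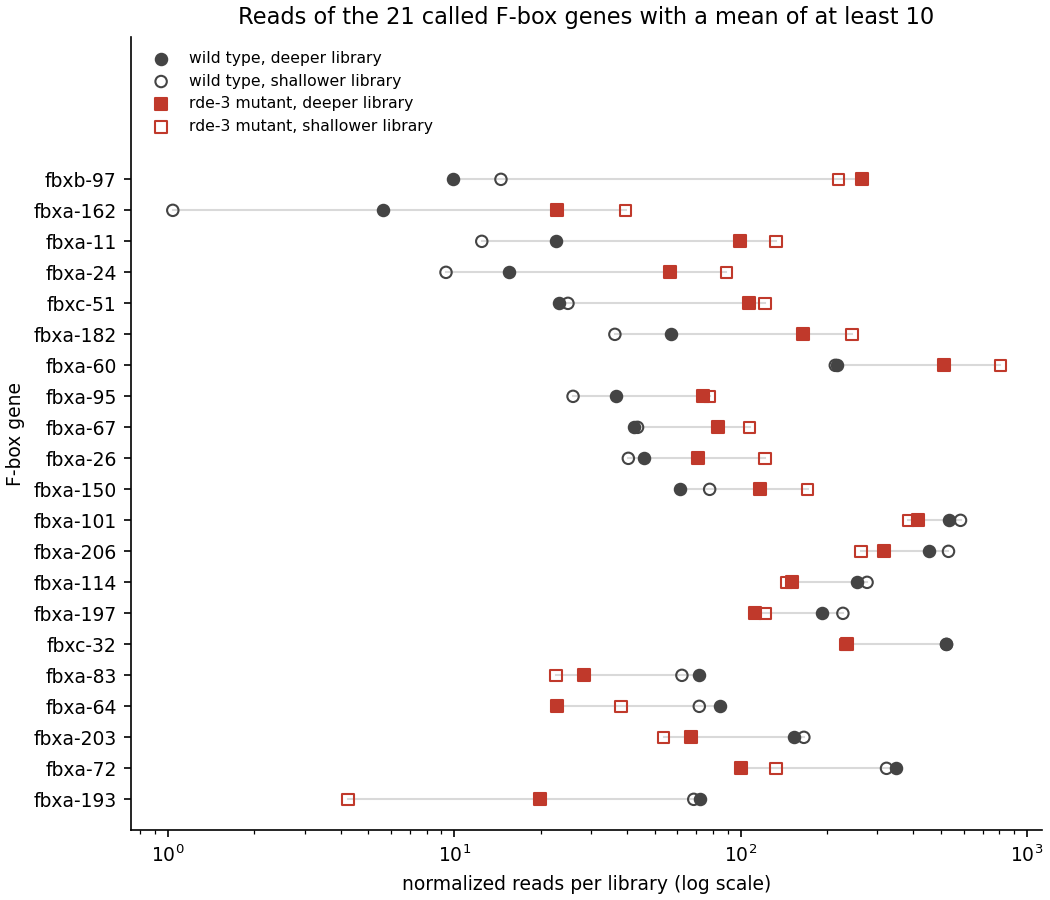
Normalized reads (log x axis) in each of the 4 libraries for the 21 called F-box genes with a mean of at least 10, sorted by deposited log2 fold change; circles are wild-type and squares mutant libraries, filled for the deeper and open for the shallower library of each genotype. In none of the 21 rows do the 2 genotypes overlap. The genes were picked by a test on these same libraries, so this lack of overlap is no separate support for the calls. The spread between the 2 libraries of a genotype is widest for fbxa-193 in the mutant (19.9 and 4.24) and for fbxa-162 in wild type (5.64 and 1.04).

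fbxa-114 lies beside fog-2, after which the FTH domain is named. On chromosome V, ftr-1 (20196971 to 20198243), fog-2 (20199254 to 20200648) and fbxa-114 follow each other within 6 kb. fog-2 encodes the F-box protein that acts with the RNA-binding protein GLD-1 on tra-2 mRNA to allow sperm formation in hermaphrodites, and ftr-1 is its neighbouring paralog. ftr-1 had 283 and 300.04 normalized reads in wild type and 162 and 151 in the mutant, and in the authors' deposited table it fell by 0.89 ± 0.24 on the log2 scale (adjusted p 0.00228). fog-2 between them had 526 and 591 against 448 and 501, a deposited log2 of -0.24 ± 0.18 that did not pass (adjusted p 0.492). The mutant libraries were below the wild-type libraries for all 3 genes, as for 35.7% of recovered features with a mean of at least 10. Whether reads were shared between these paralogs was not tested. fbxa-115, in the same run as fbxa-114, had overlapping groups, with a deposited log2 of 0.34 ± 0.54 (adjusted p 0.827). It is named after its values were seen. Of 37 measured sperm markers, major sperm protein and other sperm genes, 30 were lower and 0 higher in the authors' deposited table. The counts were the same at an unadjusted p under 0.05, and the median log2 of the sperm markers was -2.87. Their summed level was 6211 and 4584 normalized reads in wild type and 773 and 805 in the mutant, and 5 of the 37 were at 0 in at least 1 library. Their part in the levels of fog-2, ftr-1 and fbxa-114 was not tested.

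The called members were spread over 5 chromosomes, with few calls on each. On chromosome III, which held 61 fbxa and 9 fbxb genes, 32 members had a mean of at least 10, and all 32 were fbxa. Of these 4 were higher and 0 lower, where 7 were higher and 1 lower both at an unadjusted p under 0.05 and in limma on the recovered reads. The background on chromosome III was 16.2% higher and 10.3% lower, so the share called higher, 12.5%, was near it. The signs were less even than the calls, with 26 of the 32 positive and a median log2 of 0.67, against 0.05 over 2017 features of that level on the chromosome. On chromosome V, 2 of 37 such members were higher and 6 lower, against a background of 14.4% and 12.5%. At an unadjusted p under 0.05, 3 were higher and 9 lower there, and limma called 4 higher and 8 lower. Of the 37, 24 were negative, with a median of -0.35 against -0.04 over 2191 features. On chromosome II, 5 of 26 were higher and 1 lower, 6 calls in all. Of features of that level on the chromosome 27.1% were called, 16.1% higher and 11% lower. At an unadjusted p under 0.05, 5 of the 26 were higher and 3 lower, and limma called 6 higher and 3 lower. Their median was 0.23 against 0.06. On chromosomes I and IV the calls were all lower, 2 of 11 and 1 of 5, where 2 and 1 were higher at an unadjusted p under 0.05. The background was 13.8% higher and 13.2% lower on I and 14.2% and 13.8% on IV, so these few calls were near it. On X none of 6 was called by the deposited test, by limma or at an unadjusted p under 0.05, against 18.5% of features of that level. Members on 1 chromosome are often neighbouring copies and are not independent of each other, so no test was made of these splits.

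**Figure D4:**
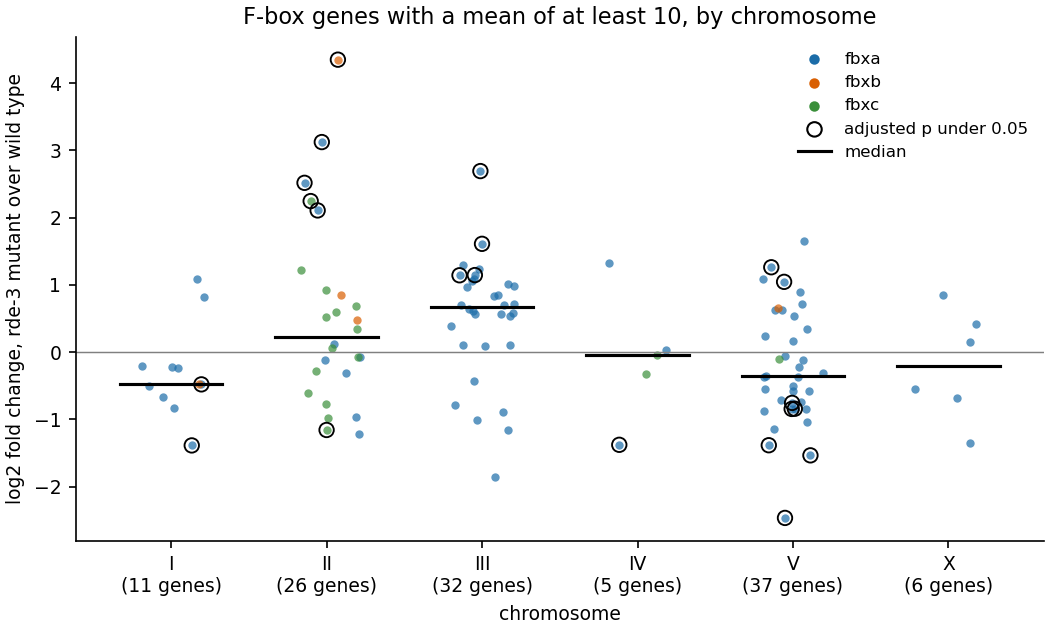
Deposited log2 fold change (mutant over wild type) of the 117 F-box genes with a mean of at least 10, by chromosome; the number of genes is given under each chromosome, bars are medians, colours mark the subfamilies, rings mark genes with an adjusted p under 0.05, and the sideways spread of points carries no information. On chromosome III 26 of 32 genes lie above 0, with a median of 0.67, and on chromosome V 24 of 37 lie below, with a median of -0.35.

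The family is arranged in runs of neighbouring copies. With gaps under 20 kb between members, the 311 genes formed 123 groups, of which 71 were single genes and 17 held at least 5 genes. Those 17 held 145 members, and 11 of them were of 1 subfamily throughout. Among the 24 called members, 5 lay within 50 kb of another called one, all with the same sign. These were fbxa-60, fbxa-67 and fbxa-11 on chromosome III and fbxa-162 and fbxa-163 on chromosome II. Of the 117 members with a mean of at least 10, 85 lay within 50 kb of another, 67 of them beside one of the same sign.

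The run around fbxa-60 held 10 fbxa genes in 30.4 kb of chromosome III (933422 to 963833). All 8 with a mean of at least 10 had positive log2 values, between 0.84 and 2.69 with a median of 1.07. At an unadjusted p under 0.05, and also in limma, 5 were higher and 0 lower. The deposited test called 3 of the 8 (37.5%), all higher, against 16.2% higher on chromosome III. The run was drawn around a called gene, so this share is not a test. The 5 not called by the deposited test had log2 values of 1.06 ± 0.57 (fbxa-55), 0.99 ± 0.43 (fbxa-59), 0.84 ± 0.86 (fbxa-10), 1.08 ± 0.53 (fbxa-54) and 0.97 ± 0.54 (fbxa-51). Of these, fbxa-59 had 67 and 37 reads in wild type and 71 and 74 in the mutant, and was the nearest to the threshold (adjusted p 0.104). The pseudogenes fbxa-70 and fbxa-23 had means of 8.15 and 2.89 and were not called. These 5 and the 2 pseudogenes are named after their values were seen. Genes in the same stretch without an fbxa, fbxb or fbxc name did not share 1 direction. T12B5.15, with a mean of 198, had a deposited log2 of -0.12 ± 0.25 (adjusted p 0.876). T12B5.9, a pseudogene inside the span of fbxa-59, rose by 2.39 ± 0.89 (adjusted p 0.0445). Whether it shares reads with fbxa-59, or is itself related to F-box genes, was not tested. Over the 58 genes with other names and a mean of at least 10 within 200 kb, 5 were higher and 3 lower, with a median log2 of 0.02. T12B5.15 and T12B5.9 are among the 58, and T12B5.9 is among those higher.

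**Figure D5:**
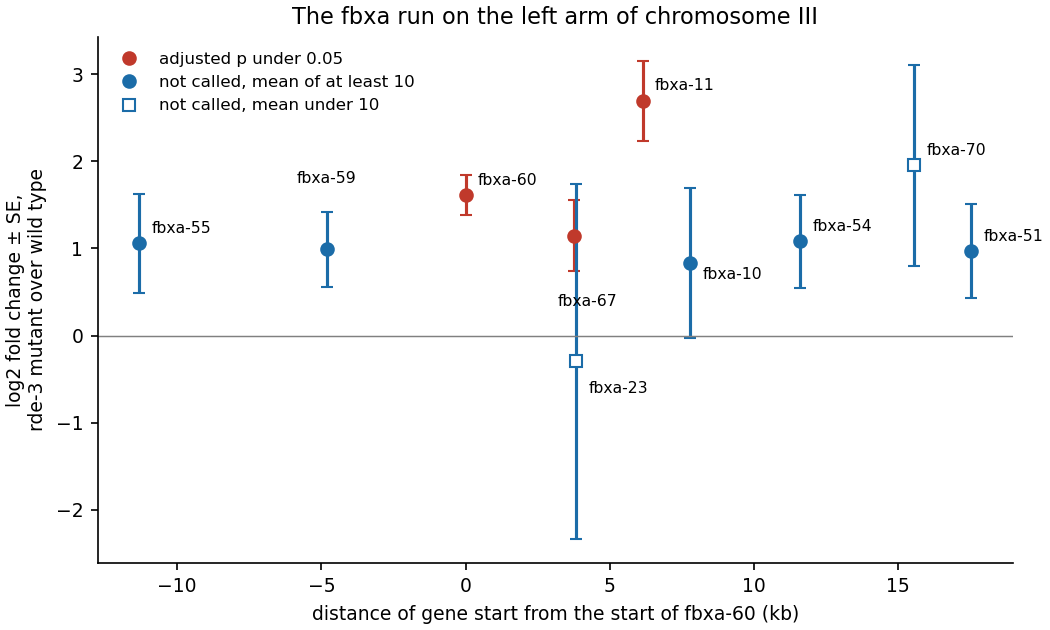
Deposited log2 fold change (mutant over wild type) with its standard error for the 10 fbxa genes of the run around fbxa-60, by distance of the gene start from that of fbxa-60 in kilobases; red marks an adjusted p under 0.05 and open squares mark a mean under 10. The 8 genes with a mean of at least 10 lie between 0.84 and 2.69.

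The longest run, also on chromosome III, held 29 fbxa genes between 1236015 and 1344744. Of its 17 members with a mean of at least 10, 13 had positive and 4 negative log2 values with a median of 0.57, and fbxa-26 at its end was the 1 called. A run on chromosome V (17637982 to 17658198) went the other way. All 5 of its genes had a mean of at least 10 and a negative deposited log2, of -1.15 ± 0.91 for fbxa-191, -0.88 ± 0.53 for fbxa-192, -2.47 for fbxa-193, -0.54 ± 0.54 for fbxa-129 and -1.04 ± 0.43 for fbxa-108. Only fbxa-193 passed. fbxa-191, fbxa-192 and fbxa-129 are named after their values were seen.

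fbxa-158, an F-box gene of the intracellular pathogen response, lies in a run of 4 genes on chromosome II (1607869 to 1621280). It encodes an F-box protein reported to act with the cullin CUL-6 and the SKP1-type adaptors SKR-3 and SKR-4 in that response, in which worms infected by microsporidia or viruses raise proteotoxic stress tolerance. It had 2.12 and 1.04 normalized reads in wild type and 6.63 and 7.07 in the mutant, from 3 and 1 reads against 7 and 5. The ratio was 4.05 with a 95% exact interval of 1.23 to 17.2 for counting error only, and in the authors' deposited table it did not pass (log2 2.08 ± 1.60, adjusted p 0.498). fbxa-75, the other F-box gene of that response, was not analysed here. The neighbours at the other end of the run passed. The pseudogene fbxa-162 had 5.64 and 1.04 normalized reads in wild type and 22.7 and 39.6 in the mutant, a deposited log2 of 3.13 ± 0.93 (adjusted p 0.0068). Its ratio of 9.33 was 30 without the deeper wild-type and 5.52 without the shallower wild-type library. fbxa-163 had 2 and 0 reads in wild type and 17 and 13 in the mutant. Its deposited log2 was 4.43 ± 1.46 (adjusted p 0.0181), and the ratio was 20.3 with a 95% exact interval of 5.14 to 175 for counting error only. Over normalized reads its ratio was 24.5 and 12.2 without the shallower wild-type library, and without the deeper one no wild-type read was left.

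2 more genes with a mean under 10 were called, both higher. fbxb-44 (chromosome II, 1538889 to 1539899) had 0 and 0 reads in wild type and 8 and 9 in the mutant (deposited adjusted p 0.0194). It was 7.65-fold higher when wild type is set at a floor of 3 reads for both libraries together. That value leaves out the counting error of the mutant reads. fbxb-42 beside it had 1 and 0 against 6 and 8 reads and did not pass (adjusted p 0.13). fbxa-88 (chromosome V) had 2 and 2 reads in wild type and 18 and 13 in the mutant, a ratio of 10.5 with a 95% exact interval of 3.70 to 40.8, and its deposited adjusted p was 0.0302. It overlaps fbxa-18. fbxa-163, fbxb-44, fbxb-42 and fbxa-88 are named after their values were seen.

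Over the 194 members with a mean under 10, 3 were higher (1.55%) and 0 lower, where at an unadjusted p under 0.05 there were 7 higher and 0 lower, and limma did not test this level. Of all features with a mean under 10, 0.580% were called, 0.322% higher and 0.258% lower. Of the 194, 125 had positive and 69 negative log2 values. Their summed reads were 613 and 471 in wild type and 644 and 981 in the mutant after normalization, a ratio of 1.5, while 6008 other features of that level had a ratio of 0.959. The excess lay mostly in 1 library. Without the shallower mutant library the ratio was 1.19 for all 194, 1.33 for fbxa, 1.05 for fbxb and 1.17 for fbxc, against 1.45, 1.49 and 1.74 with it. That library held the highest value of the 4 for 49 of 92 fbxb genes (53.3%), for 19 of 27 fbxc genes (70.4%) and for 21 of 75 fbxa genes (28%), against 27.8% of the other features of that level. It was also the one with the fewest reads, and the part of its depth in these sums was not tested. Without reads in wild type were 15 members and without reads in the mutant 4. The median log2 over all 311 was 0.43 with the fitted values. It was 0.34 with these genes set at the floor of 3 reads or, where neither group passed 3 reads, left out.

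The pseudogenes had few calls. Of 22 pseudogenes with a mean of at least 10, 1 was higher (fbxa-162) and 2 were lower (fbxa-203 and fbxa-193). Their log2 values were positive for 7 and negative for 15, with a median of -0.16. Of 95 protein-coding members of that level, 10 were higher and 8 lower. Their log2 values were positive for 54 and negative for 41, with a median of 0.15. The shares called, 13.6% and 18.9%, were both below the 25.9% of all features of that level. Pseudogenes and close copies can share reads, and how the authors counted reads that match several places is not given in the sources used here.

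Partners of F-box proteins in SCF ligases were looked up from a list of 41 genes of cullin ligases, of which 39 were measured. Among them 9 rose and 2 fell by the authors' deposited adjusted p, with a median log2 of 0.14. That is 28.2% called, 23.1% higher and 5.13% lower. Of all features with a mean of at least 50, 31.7% were called, 17.5% higher and 14.2% lower. The median gene of the list exceeds that level (median mean 578). The share called in either direction was near the background, with more of it higher and less of it lower. Of the rises 4 were skr genes, 4 were cullins and 1 was cand-1. Of 19 skr genes, which encode the SKP1-type adaptors that bind the F-box, 4 were higher (21.1%) and 0 lower. That share higher was near the 17.5% at means of 50 and above. At an unadjusted p under 0.05 there were 7 higher and 1 lower, and limma called 8 higher and 1 lower of the 18 that it tested. skr-4 rose from 47.2 and 38.4 normalized reads to 162.9 and 209 (deposited log2 2.11 ± 0.34, adjusted p 2.61e-08). skr-15 rose by 1.40 ± 0.50 (adjusted p 0.0329), skr-3 by 0.88 ± 0.27 (adjusted p 0.00917) and skr-7 by 0.83 ± 0.25 (adjusted p 0.00685). The housekeeping adaptor skr-1 did not pass, at 0.02 ± 0.13 (adjusted p 0.95). In limma without the shallower wild-type library the adjusted p was 0.0895 for skr-7 and 0.0758 for skr-3, and without the deeper one it was 0.102 for skr-15.

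Of the 6 cullin genes 4 were higher (66.7%) and 0 lower, against 17.5% higher and 14.2% lower at means of 50 and above. That is a share over few genes. cul-6, the cullin of the intracellular pathogen response, rose from 81.1 and 86.2 normalized reads to 158.1 and 185 (deposited log2 1.04 ± 0.30, adjusted p 0.00623). The scaffolds cul-1, cul-2 and cul-3 rose by 0.51 ± 0.13, 0.46 ± 0.13 and 0.43 ± 0.13 on the log2 scale in the authors' deposited table (adjusted p 7.77e-04, 0.00273 and 0.00768). Of the 14 remaining genes, cand-1, which exchanges F-box subunits on the cullin, rose by 0.46 ± 0.12 (adjusted p 0.00212). rbx-1, the RING subunit that recruits the ubiquitin-conjugating enzyme, fell by 0.76 ± 0.14 (adjusted p 1.55e-06), and csn-2, a subunit of the deneddylating COP9 signalosome, fell by 0.52 ± 0.13 (adjusted p 6.14e-04). After removal of a trend of log2 change with transcript length the adjusted p was 0.0629 for cul-1, 0.273 for cul-2, 0.421 for cul-3 and 0.509 for cand-1, whose transcripts are long.

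F-box proteins with other names were taken from a list of 11, all measured. 2 were higher and 1, ftr-1, was lower (27.3% called), with a median log2 of 0.30 and a median mean of 595, and this share too was near the 31.7% called at means of 50 and above. sel-10, the ortholog of the human tumour suppressor FBXW7 that limits Notch signalling, rose by 0.51 ± 0.11 in the authors' deposited table (adjusted p 1.31e-04). prom-1, needed for chromosome pairing in meiosis, rose by 0.63 ± 0.16 (adjusted p 0.00106), and in limma without the deeper wild-type library its adjusted p was 0.106.

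Markers of other tissues also differed in level. Besides the sperm genes, all 9 oocyte markers were higher, with a median log2 of 0.54, and all 8 muscle markers were lower, with a median of -1.53, in the authors' deposited table. Of 6 intestinal markers 2 were higher, with a median of 0.12. Of 7 neuronal markers 0 were called by the deposited test, where 3 were higher both at an unadjusted p under 0.05 and in limma on the recovered reads, with a median of 0.21. Their part in the levels of the F-box genes was not tested.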

How the data were processed

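Poly(A) RNA of 2 N2 and 2 YY1449 libraries was sequenced; per the labels' protocols, the library kit was Nextera XT, which keeps no strand. The submitters' processing notes name the builds WBcel235 and ce11 and the tools STAR 2.7.0a, SAMtools 1.3.1, cutadapt 1.14 and Trim Galore 0.4.4. How reads were counted, how those matching several places were treated, and which statistical model was used is not given in the sources used here.

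Their own comparison, over 18638 features, was deposited by the authors. Per the file headers, the deposited signal is the average over libraries of counts scaled by size factors, and the log2 column is the fold change, with its standard error. The deposited score is the Wald statistic, log2 over standard error, and the deposited p-value columns hold its p and the Benjamini-Hochberg adjusted p over all features. The smaller deposited table held the 3254 features with an adjusted p under 0.05.

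From the deposited means, whole reads per library were solved for (tolerance 2e-12; means under 2000). All 311 members had 1 solution, and of 311 means moved by a random offset 1 did. Of 292 members with reads in both groups, 282 had a deposited log2 between the 2 read ratios that their libraries give. At means of 100 or more the solution was chosen by that log2, so these members do not check it. Of the 273 members with a mean under 100 and reads in both groups, 263 had it between the ratios. These reads were tested with limma 3.58.1 (R 4.3.3, trended variance) on log2(normalized reads + 1), over 10860 recovered features with a mean of at least 10, as an alternative added after the data were seen. Intervals are Clopper-Pearson at 95% and cover counting error only. The floor of 3 reads is a fixed setting, with the reads of the other genotype taken as exact. The other steps used Python 3.11.15 and scipy 1.17.1.

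Positions and biotypes are from RefSeq on WBcel235, which matched all 311 members. Exon lengths are from Ensembl release 115, matched by the same name for 259 members and by identical span for the others. Of the members, 57 overlap another gene, 4 of them called. Members and lists were chosen with earlier results of these data known. Named genes were every called member with a mean of at least 10, the 2 of highest mean in each subfamily, fbxa-158, the members nearest the threshold and the called genes of the 2 lists. The replicates are called biological in the series' design text; whether they came from separate cultures is not stated, so p-values measure only the spread between these libraries.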

Additional observations from a re-analysis of the deposited data

How the results depend on the processing

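With a t distribution of 2 degrees of freedom in place of the normal, the members called were 0 higher and 0 lower, in each subfamily too. The smallest adjusted p was 0.682, also for fbxb-97 with its Wald statistic of 10.8. Outside the family, skr-4, rbx-1 and sel-10 had the same value. This setting thus did not set strong calls apart from weak ones, and its zeros are not particular to the members. At an unadjusted p under 0.05 it gave 6 higher and 2 lower. At an adjusted p under 0.01 in the deposited test, the members called were 7 higher and 6 lower (fbxa 5 and 5, fbxb 1 higher). With a change of at least 2-fold 6 were lower (fbxa 5). Among features with a mean of at least 50, 9 were higher (fbxa 7, fbxb 1), and with a mean of at least 10 fbxb had 1 higher. limma gave fbxa 17 higher, fbxb 1 higher and fbxc 2 higher and 2 lower, and removal of the length trend gave fbxc 2 higher. In limma without 1 library each, the members called ranged from 8 to 32 higher and 4 to 21 lower, fbxa from 6 to 26 and 3 to 19, fbxb from 1 to 2 higher, and fbxc from 1 to 4 higher and 1 to 4 lower. Shares over all features are not given for the t, 0.01, 2-fold, length-trend and leave-one-out settings. These counts therefore do not tell whether the members moved differently from other features. The cause of these moves was not tested.

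Of the 24 called members, 23 kept the call after recentring, which lost fbxa-26 (adjusted p 0.0589). Removing the length trend left 21 and lost fbxa-64 (0.0567), fbxa-67 (0.0631) and fbxa-101 (0.195). Of the 21 with a mean of at least 10, the limma fits kept 21, 15, 20 and 12 without the deeper mutant, the deeper wild-type, the shallower mutant and the shallower wild-type library. The settings run could not turn the direction of a called gene, so they do not test it. Thresholds leave log2 values as they are, and recentring shifted them by 0.0532. The length trend lay between -0.368 and 0.313 over the members, while the smallest called change was -0.48 (fbxa-101). Called genes had no overlap between genotypes, so leaving out 1 library keeps the direction. The median log2 depended on the level chosen. It was 0.43 over all members, 0.085 at a mean of at least 10 and -0.125 at a mean of at least 50. For fbxa these values were 0.28, 0.085 and -0.23, and for fbxc 0.68, -0.05 and 0.06. For fbxb they were 0.43, 0.65 and 2.5, the last over 2 genes. After recentring or removal of the length trend the medians stayed positive. Members below a mean of 10 had too few reads for most changes to be detected.

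No paired analysis was possible because the columns carry no replicate numbers and the recovered libraries cannot be tied to the labelled replicates. The alternative without near-identical proteins was not run.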
